A study of Mus musculus with 5 samples.

Results

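The 10 genes described here are markers of the endothelium that lines brain capillaries and of the blood-brain barrier that it forms. They are Cldn5, Cdh5 and Pecam1 (cell junctions), Flt1, Kdr and Tek (receptors for vascular growth factors), Slco1a4, Abcb1a and Mfsd2a (transport across the barrier) and Ly6c1 (a surface protein). They were chosen by symbol, with earlier results of these data known, and each matched 1 of the 53700 gene IDs in the count table. Ribosome-bound RNA was purified by BAC-TRAP from the midbrain of C57BL/6 mice aged 4 months and sequenced in 3 Esrrg WT libraries (genotype L10a;Esrrg WT, replicates 2, 3 and 4) and 2 Esrrg Flox libraries (genotype L10a;Esrrg Flox, replicates 2 and 4). In this method Cre switches on an EGFP-tagged ribosomal protein, L10a, and an antibody to EGFP pulls down the tagged ribosomes with their mRNA. Mice of both genotypes carried the L10a transgene and received AAV:THCre, a virus in which the promoter of tyrosine hydroxylase (Th) drives Cre, which aims the tag at dopaminergic neurons. The same Cre removes exon 2 of Esrrg in Flox mice, and tissue was taken 1 month after the deletion. Each library pooled several animals, and the depth ran from 20635855 to 23105058 assigned counts.

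Endothelial cells of the brain are sealed to one another by tight junctions, take up few substances by vesicles and carry transporters that bring nutrients in and pump foreign compounds out. They are kept alive and quiet by growth factors such as VEGF and angiopoietin that act on receptors of the cell surface, and the barrier is maintained together with pericytes and astrocytes. The Th promoter that drove Cre here belongs to a gene of dopamine synthesis, which endothelium does not use. In pulled-down RNA of this kind, a change in the number of cells, in RNA per cell or in untagged RNA carried along cannot be told apart.

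The main comparison asked whether the level of the 10 genes differed between Esrrg Flox and Esrrg WT. Flt1, Cldn5 and Slco1a4 were higher in Esrrg Flox, with log2 fold changes of 2.0, 1.58 and 1.94, and no member was lower. These 3 of 10 passed an adjusted p of 0.05 in DESeq2, where 4.2% of the 15724 genes tested were called higher and 4.05% lower. Each of the 3 was also past 1.5-fold, and 1.77% of the genes tested were both called higher and past 1.5-fold. All 10 members had a log2 fold change above 0, against 49.1% of all genes tested, and their median was 1.52 against -0.0063 over all genes. The members were chosen with earlier results of these data known, so comparisons with all genes describe them and are not independent support. Both Flox libraries lay above all WT libraries for 5 of 10 members, against 19.9% of all genes tested, and below all of them for 0 of 10, against 22.5%. For the 4521 genes within the members' own range of mean abundance, 13.6 to 131 normalized counts, 3.12% were called higher, 7.39% were higher at an unadjusted p under 0.05 and 21.1% had both Flox libraries above all WT libraries, with a median log2 fold change of 0.08. At an unadjusted p under 0.05 in DESeq2, 6 members were higher and 0 lower, where 9.74% of all genes tested were higher and 10.6% lower. The 3 calls changed with the libraries used and with the tool, as the calls over all genes did. edgeR's quasi-likelihood test called 0 of the 10 members at an adjusted p of 0.05, where 170 of 16711 genes were called higher and 105 lower. At edgeR's unadjusted p under 0.05, 7 members were higher, and the share of all genes at that threshold is not given. With Flox replicate 4 left out, only Flox replicate 2 stood for its group, and the median log2 fold change of the members was 0.66. With WT replicate 4 left out, independent filtering in DESeq2 left no member with an adjusted p. With that filtering off 0 members were called, where 281 of 28742 genes were called higher and 230 lower. At an unadjusted p under 0.05, 2 members were then higher, and the share of all genes in that fit is not given either. Without these shares, neither this count of 2 nor the 7 by edgeR can be read against all genes. The members' median log2 fold change without WT replicate 4 was 1.16.

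**Figure D1:**
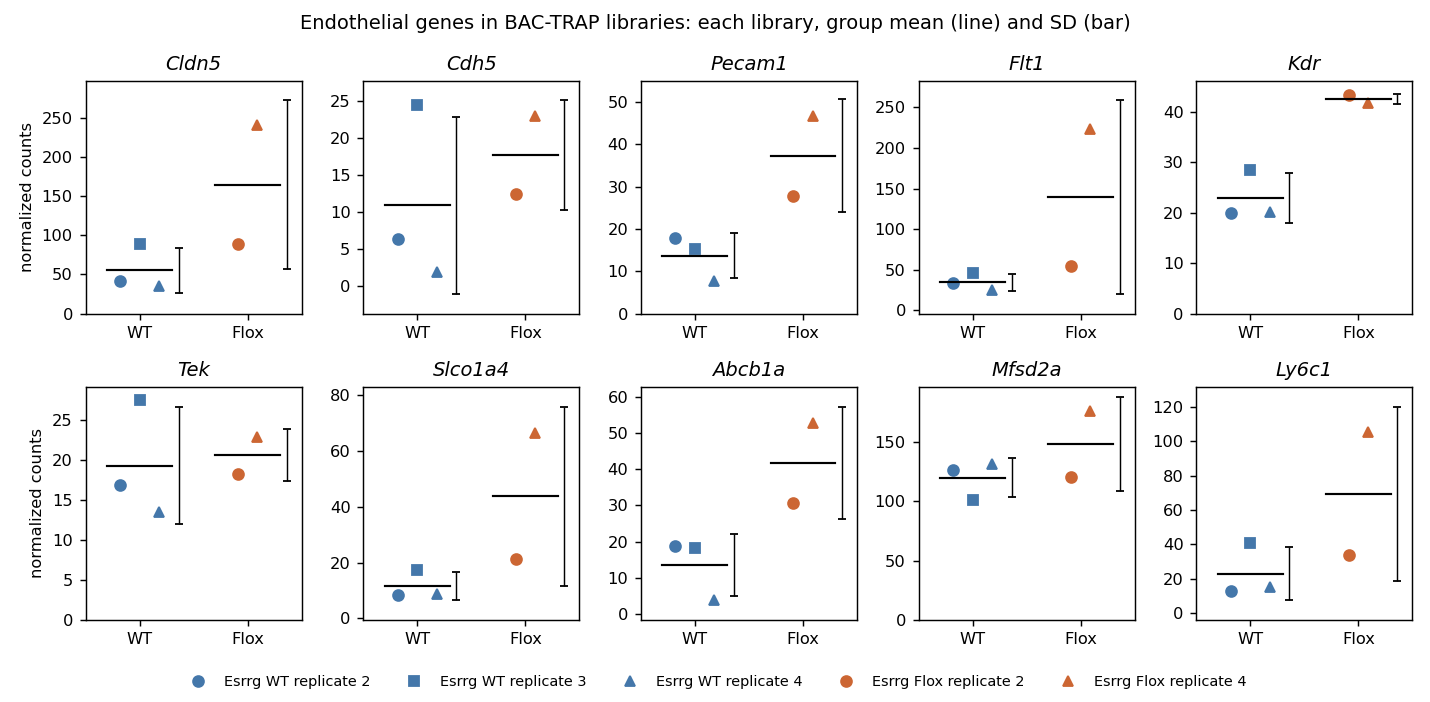
Normalized counts (y axis, linear, counts divided by the library's size factor) of the 10 endothelial genes in each of the 3 Esrrg WT and 2 Esrrg Flox libraries, with the group mean as a line and the SD as a bar. Flox replicate 4 was the highest library for Cldn5, Pecam1, Flt1, Slco1a4, Abcb1a, Mfsd2a and Ly6c1, while Cdh5 and Tek were highest in WT replicate 3 and Kdr in Flox replicate 2.

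The members were scarce in this RNA. Their counts summed to 287, 400 and 274 in WT replicates 2, 3 and 4, to 469 in Flox replicate 2 and to 1005 in Flox replicate 4, which is between 0.00119% and 0.0044% of a library. In CPM per kb, counts scaled by library total and exon length so that genes can be compared, the WT level of Th was 217 and that of the water channel of astrocytes, Aqp4, was 31.0. The members lay far below these. Mfsd2a was the most abundant at 2.43 ± 0.304 CPM per kb (SD, n = 3 WT), followed by Cldn5 at 1.79 ± 0.974 and Ly6c1 at 0.630 ± 0.434. The spreads of Mfsd2a and Cldn5 overlapped, and Cldn5 exceeded Ly6c1 by more than the SD of either. The other 7 ran from 0.188 ± 0.0743 for Tek down to 0.0823 ± 0.0375 for Slco1a4, and no neighbours among them differed beyond their SD. On this scale Mfsd2a stood at the 67.6th percentile and Slco1a4 at the 33.6th percentile of the 29204 genes with a count and a known length. No member was at 0 in any library, but 4 of 10 had fewer than 10 counts in at least 1 WT library. A count of 0 at these depths would still allow up to 0.130 to 0.145 CPM, the level of 3 counts, and this floor covers counting error only.

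For the 3 called genes, the promoter is shown so that motifs can be read in place. The windows are from RefSeq on build GRCm38.p6 and run from 250 bases before to 50 bases after the annotated start. RefSeq windows were found for 8 of the 10 members, 9 windows in all. Capitals mark AGGAAG (or CTTCCT where it lies on the other strand), a core bound by ETS factors, which include the endothelial factors Erg and Fli1. Flt1 is on the minus strand at chr5:147725962-147726261, Slco1a4 on the minus strand at chr6:141856171-141856470 and Cldn5 on the plus strand at chr16:18776597-18776896.
Flt1: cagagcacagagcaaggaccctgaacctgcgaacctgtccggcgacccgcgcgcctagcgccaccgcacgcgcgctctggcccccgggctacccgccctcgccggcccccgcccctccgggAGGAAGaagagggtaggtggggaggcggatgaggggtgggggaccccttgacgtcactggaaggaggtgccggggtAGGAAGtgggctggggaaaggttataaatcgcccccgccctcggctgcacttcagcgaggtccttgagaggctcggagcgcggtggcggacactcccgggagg
Slco1a4: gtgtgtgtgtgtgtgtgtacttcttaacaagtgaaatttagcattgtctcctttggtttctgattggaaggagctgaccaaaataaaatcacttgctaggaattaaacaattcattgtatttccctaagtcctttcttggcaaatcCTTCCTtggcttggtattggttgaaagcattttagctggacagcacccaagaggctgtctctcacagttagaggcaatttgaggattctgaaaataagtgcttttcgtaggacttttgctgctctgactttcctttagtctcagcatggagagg
Cldn5: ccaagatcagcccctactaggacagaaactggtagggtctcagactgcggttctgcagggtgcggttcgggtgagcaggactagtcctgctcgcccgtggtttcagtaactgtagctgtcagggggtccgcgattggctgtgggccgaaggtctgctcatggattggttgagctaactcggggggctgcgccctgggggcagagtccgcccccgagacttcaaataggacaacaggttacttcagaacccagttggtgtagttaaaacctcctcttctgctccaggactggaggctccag

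AGGAAG, searched on both strands, was in the windows of 4 of 8 members (Abcb1a, Flt1, Ly6c1 and Slco1a4), against 35.4% of all 32851 windows. Flt1 held it at 129 and 53 bases before the start (its first base counted, on the sense strand), and Slco1a4 held it once, on the antisense strand. With the sense strand alone, 2 of 8 members held it. The response element of estrogen-related receptors, AAGGTCA, was in the window of 0 of 8 members and in 4.72% of all windows, and the longer TCAAGGTCA, which contains it, in 0 of 8 and 0.423%. CCGGAAG, another ETS motif, was in 0 of 8 and in 8.86%. These counts describe the letters in 300 bases only.

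Among the junction genes, Cldn5 encodes claudin-5, the main sealing protein of endothelial tight junctions in brain. Cldn5 (ENSMUSG00000041378.3) had 41.1, 88.7 and 35.5 normalized counts in WT replicates 2, 3 and 4, and 88.4 and 241 in Flox replicates 2 and 4. Flox replicate 2 was level with WT replicate 3, so the groups overlapped, and Flox replicate 4 stood alone above them. The means were 55.1 ± 29.2 (SD, n = 3) in WT and 164 ± 108 (SD, n = 2) in Flox, a log2 fold change of 1.58 ± 0.448 (SE, adjusted p = 0.0112, DESeq2). Flox replicate 4 left out, the log2 fold change was 0.68 ± 0.559 (adjusted p = 0.999, DESeq2 with no independent filtering). It was 1.34 ± 0.852 with WT replicate 4 left out (adjusted p = 0.825, DESeq2, likewise). With genes of low count removed before the fit, the estimate stayed at 1.58 but the SE became 0.732 and the adjusted p 0.174, because DESeq2 then kept the gene's own dispersion of 0.298 in place of the shrunken value of 0.105.

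Cdh5 encodes VE-cadherin, the adhesion protein of endothelial adherens junctions, and Pecam1 encodes CD31, which lies at the borders between endothelial cells. Cdh5 (ENSMUSG00000031871.10) had 6.32, 24.5 and 1.92 normalized counts in WT and 12.5 and 22.9 in Flox. The groups overlapped throughout, since the highest and the lowest libraries were both WT, and the 3 WT raw counts were 6, 24 and 2. Its log2 fold change was 0.70 ± 0.904 (SE, adjusted p = 0.759, DESeq2). Pecam1 (ENSMUSG00000020717.20) had 17.9, 15.3 and 7.69 normalized counts in WT and 27.9 and 46.7 in Flox. Both Flox libraries lay above all WT libraries for Pecam1, while the test did not pass (log2 fold change 1.46 ± 0.582 SE, adjusted p = 0.103, DESeq2).

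Flt1 encodes VEGF receptor 1, which binds VEGF-A and also serves as a decoy for it. Flt1 (ENSMUSG00000029648.14) had 33.7, 45.9 and 24.98 normalized counts in WT and 54.8 and 224 in Flox. Flox replicate 2 lay just above the highest WT library, and Flox replicate 4 was more than 4 times as high again. The means were 34.9 ± 10.5 (SD, n = 3) and 139 ± 119 (SD, n = 2), and the log2 fold change of 2.0 ± 0.496 was the largest of the 10 (SE, adjusted p = 0.00269, DESeq2). Flox replicate 4 left out, it was 0.65 ± 0.605 (adjusted p = 0.999, DESeq2 with no independent filtering). It was 1.80 ± 0.956 with WT replicate 4 left out (adjusted p = 0.589, DESeq2, likewise) and 2.68 ± 0.453 with Flox replicate 2 left out.

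Kdr encodes VEGF receptor 2, the receptor that carries most of the VEGF-A signal in endothelium. Kdr (ENSMUSG00000062960.11) had 20.02, 28.5 and 20.2 normalized counts in WT and 43.2 and 41.8 in Flox. The groups did not overlap and the Flox libraries were close to each other, with a log2 fold change of 0.89 ± 0.463 that did not pass (SE, adjusted p = 0.258, DESeq2). It was the member whose estimate moved least when Flox replicate 4 was left out, to 0.91 ± 0.690. Tek encodes TIE2, the receptor of the angiopoietins. Tek (ENSMUSG00000006386.16) had 16.9, 27.5 and 13.5 normalized counts in WT and 18.3 and 22.9 in Flox, so that both Flox values fell within the WT range. Its log2 fold change was 0.09 ± 0.595 (SE, adjusted p = 0.961, DESeq2), an interval too wide to show that it did not differ.

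Slco1a4 encodes an organic anion transporter of the brain capillary wall. Slco1a4 (ENSMUSG00000030237.15) had 8.43, 17.3 and 8.65 normalized counts in WT and 21.1 and 66.6 in Flox. The groups did not overlap, with Flox replicate 2 above the highest WT library by a narrow margin. The means were 11.5 ± 5.07 (SD, n = 3) and 43.9 ± 32.2 (SD, n = 2), with a log2 fold change of 1.94 ± 0.645 (SE, adjusted p = 0.0383, DESeq2). Flox replicate 4 left out, it was 0.88 ± 0.988 (adjusted p = 0.999, DESeq2 with no independent filtering), and WT replicate 4 left out, 1.76 ± 0.727 (0.275). Without WT replicate 3 it was 2.36 ± 0.770, with an adjusted p of 0.0522 in DESeq2, and without WT replicate 2 it was 1.76 ± 0.732, with 0.224. Its relative Slco1a5 had at most 3 counts in any library, and Slco1a1 and Slco1a6 had none, so few counted reads went to them. Reads that aligned to more than 1 of these genes were not counted.

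Abcb1a encodes P-glycoprotein, the efflux pump that keeps many drugs out of brain. Abcb1a (ENSMUSG00000040584.9) had 19.0, 18.3 and 3.84 normalized counts in WT and 30.7 and 52.7 in Flox. The groups did not overlap, and WT replicate 4, with 4 raw counts, was far below the other WT libraries. Its log2 fold change of 1.61 ± 0.638 did not pass (SE, adjusted p = 0.0989, DESeq2). The close paralog Abcb1b had 19.2 to 27.5 normalized counts in WT and 19.2 and 30.8 in Flox, with a log2 fold change of 0.12 ± 0.534 (SE, adjusted p = 0.942, DESeq2). Reads aligned to more than 1 place were not counted, so reads of sequence shared by the pair may be missing from both, to an uncertain extent. In GENCODE release M21, 10.1% of the exon bases of Abcb1a also lie in another gene model, Gm42686. In libraries that carry no strand, reads over both models are ambiguous, and ambiguous reads stayed out of the tests. The count of Abcb1a may miss such reads if the annotation used for counting holds both models. No other member shared exon bases with another gene in that release.

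Mfsd2a encodes the lysophospholipid transporter that carries docosahexaenoic acid into brain and holds down vesicle traffic across the endothelium. Mfsd2a (ENSMUSG00000028655.12) had 126, 101 and 132 normalized counts in WT and 120.1 and 176 in Flox. Flox replicate 2 fell within the WT range and the WT libraries were close together, unlike those of most members. The log2 fold change was 0.31 ± 0.266 (SE, adjusted p = 0.595, DESeq2), and without Flox replicate 4 it was 0.00 ± 0.361. Its profile over the 5 libraries was the farthest from the members' mean profile, at a distance of 1.52 on the centred log2 (normalized count + 1) scale, where Cldn5 was the nearest at 0.563.

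Ly6c1 encodes a GPI-anchored surface antigen of endothelium and of some leukocytes. Ly6c1 (ENSMUSG00000079018.11) had 12.6, 40.8 and 15.4 normalized counts in WT and 33.6 and 105 in Flox. Flox replicate 2 lay below WT replicate 3, so the groups overlapped. The log2 fold change was 1.60 ± 0.591 (SE, adjusted p = 0.0697, DESeq2). The estimate fell to 0.55 ± 0.818 when Flox replicate 4 was dropped and rose to 2.20 ± 0.671 when Flox replicate 2 was dropped. Dropping single WT libraries gave Ly6c1 adjusted p-values of 0.33 (replicate 2), 0.0158 (replicate 3) and 0.406 (replicate 4, no independent filtering) in DESeq2. Its near-identical neighbour Ly6c2, a gene of monocytes, had 21.1, 22.4 and 8.65 normalized counts in WT and 47.1 and 68.6 in Flox, with no overlap. Ly6c2 was higher in Flox (log2 fold change 1.74 ± 0.509 SE, adjusted p = 0.0147, DESeq2). Reads aligned to more than 1 place were not counted, so reads of sequence shared by the pair may be missing from both. The values of Ly6c1 are uncertain for that reason.

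**Figure D2:**
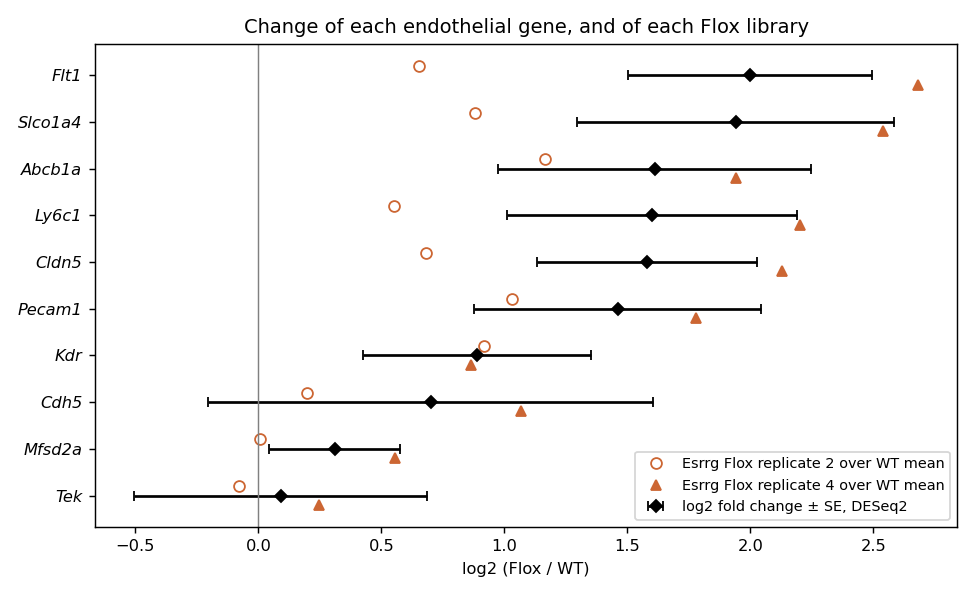
Log2 fold change of each endothelial gene, Esrrg Flox over Esrrg WT, with its SE (diamonds and bars, DESeq2), and the log2 ratio of each Flox library to the WT mean (open circles, replicate 2; triangles, replicate 4). For Flt1 the Flox libraries stood at 1.57 and 6.42 times the WT mean, while for Kdr they stood at 1.89 and 1.82 times.

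The Flox libraries differed from each other for most members. Flox replicate 4 was above replicate 2 for 9 of 10 members, and for 7 of 10 the ratio of their normalized counts was past 1.58, the 95th percentile of the 15724 genes tested, whose median ratio was 0.996. The ratio was largest for Flt1, at 4.08 (95% counting interval 3.04 to 5.56), followed by Slco1a4 at 3.15 (1.92 to 5.36), Ly6c1 at 3.13 (2.12 to 4.73) and Cldn5 at 2.72 (2.13 to 3.50). For these 4 genes 1 library held most of the Flox counts. In all, 7 of 10 intervals lay above 1. Kdr had a ratio of 0.966 (0.619 to 1.504) and Tek 1.25 (0.653 to 2.43), and neither interval excluded equal levels. The intervals are exact, from the raw counts of the pair, and cover counting error only. Relative to the WT mean, the median over the members was 1.59 in Flox replicate 2 and 3.63 in Flox replicate 4.

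The WT libraries were spread as well. WT replicate 3 was the highest WT library for 7 of 10 members and WT replicate 4 the lowest for 6, and the median ratio to the WT mean was 0.874, 1.38 and 0.684 in replicates 2, 3 and 4. The widest spread was that of Cdh5, from 1.92 to 24.5 normalized counts, and the narrowest that of Mfsd2a, from 101 to 132. Leaving out WT replicate 3 moved the median log2 fold change of the members to 1.99, and leaving out WT replicate 2 to 1.36. Without WT replicate 2, 1 member (Flt1) was called by DESeq2, where 201 of 15910 genes were called higher and 142 lower. Without Flox replicate 2, only Flox replicate 4 stood for its group, and the median log2 fold change of the members was 1.86.

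**Figure D3:**
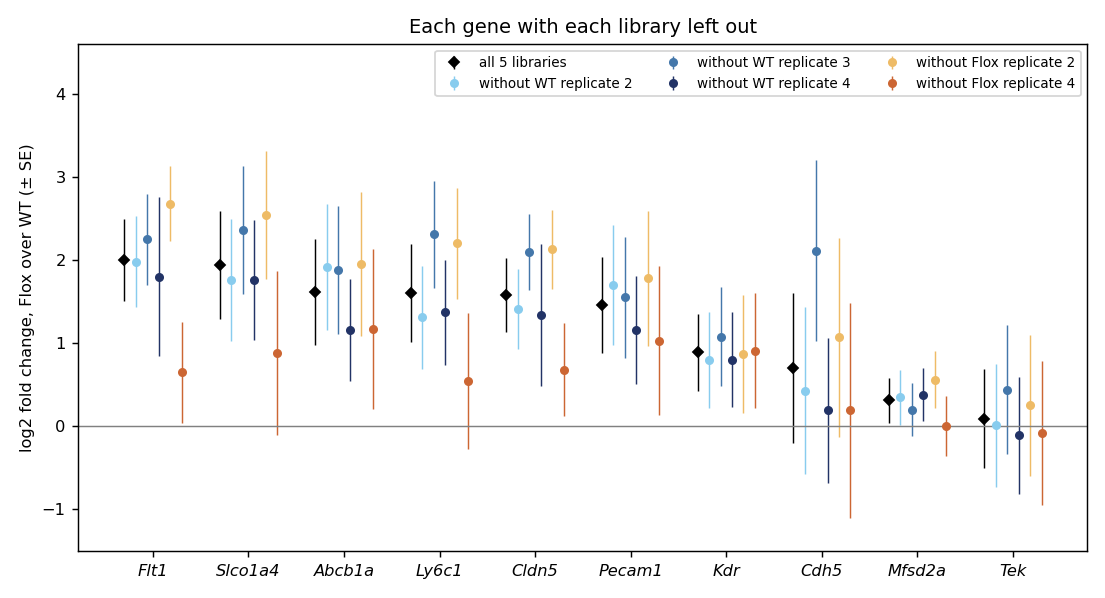
Log2 fold change of each endothelial gene (y axis, Esrrg Flox over Esrrg WT, with SE, DESeq2) with all 5 libraries (diamonds) and with each library left out in turn (circles). Leaving out Flox replicate 4 took Flt1 from 2.0 to 0.65, Slco1a4 from 1.94 to 0.88 and Cldn5 from 1.58 to 0.68, and left Kdr at 0.91.

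Beyond the 10 members, 82 other genes of endothelium were taken as a comparison, in 10 lists of junction proteins, receptors, transporters, transcription factors, surface proteins, activation markers, caveolae, basement membrane and arterial and venous genes. Of the 63 with an adjusted p in DESeq2, 1 was higher in Flox and 0 were lower, with 8 higher and 2 lower at an unadjusted p under 0.05; edgeR called 0 in either direction. Their median log2 fold change was 0.30, against 1.52 for the members, and 64 of 82 were above 0, against 49.1% of all genes tested. For 21 of them both Flox libraries exceeded every WT library, and for 6 both were under every WT library, against 19.9% and 22.5% of all genes tested. The 82 include genes too scarce for an adjusted p, which the shares over all genes tested leave out, so the 2 sets are not alike. These lists were also chosen with earlier results known, and they mix scarce genes with abundant ones that other brain cells also make. Some scarce genes had estimates near the members' median, such as Foxq1 (1.49 ± 0.790 SE) and Erg (1.44 ± 0.970). Others went the other way, such as Lama4 (-0.66 ± 0.863). These genes were picked after their values were seen and had no adjusted p. The called gene was Vcam1, an adhesion molecule for leukocytes that other brain cells also make, with 660 (WT replicate 2), 494 and 571 normalized counts in WT and 686 and 1312 in Flox. Its Flox libraries were both above all WT libraries, the first of them narrowly (log2 fold change 0.80 ± 0.228 SE, adjusted p = 0.0121, DESeq2), and it was not called without Flox replicate 4, WT replicate 3 or WT replicate 4, nor with the replicate number as a block.

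The lists closest in function to the members gave these values. For the receptors that act beside Flt1, Kdr and Tek, 0 passed in DESeq2 of the 7 of 10 with an adjusted p (1 higher at an unadjusted p, and 0 by edgeR's adjusted p), with a median log2 fold change of 0.98. Among them the TGF-beta co-receptor Eng, a gene outside the rule for named genes that was picked after its values were seen, had 50.6, 50.9 and 24.98 normalized counts in WT and 67.2 and 101 in Flox (log2 fold change 1.00 ± 0.402 SE, adjusted p = 0.105, DESeq2). The most abundant of these receptors was S1pr1, which astrocytes also express, with 2266, 2043 and 3541 normalized counts in WT and 1879 and 2020.0 in Flox (log2 fold change -0.42 ± 0.334 SE, adjusted p = 0.537, DESeq2). Its Flox libraries were both below all WT libraries, in the other direction from Flt1.

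For the 10 junction and adhesion genes, 0 of the 8 with an adjusted p passed (1 higher unadjusted) and the median log2 fold change was 0.29. For the 14 transporters of the barrier, 0 of the 12 with an adjusted p passed (0 higher and 1 lower unadjusted), with a median of 0.11. The amino acid transporter subunit Slc3a2 had 1616, 1489 and 1721 normalized counts in WT and 1644 and 2158 in Flox (log2 fold change 0.24 ± 0.141 SE, adjusted p = 0.340, DESeq2). Of the transporters among the members, Slco1a4 and Abcb1a had estimates of 1.94 and 1.61, far from this median, and Mfsd2a one of 0.31.

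For the 12 endothelial transcription factors, 0 of the 8 with an adjusted p passed (1 higher and 1 lower unadjusted), with a median of 0.62. Epas1, the hypoxia factor HIF-2 alpha, was the most abundant, with 1478, 1463 and 1688 normalized counts in WT and 1392 and 1721 in Flox (log2 fold change 0.01 ± 0.134 SE, adjusted p = 0.980, DESeq2). For general surface and secreted genes of endothelium, 0 passed of the 10 of 12 with an adjusted p (2 higher unadjusted) and the median was 0.42. Ly6a, an antigen related to Ly6c1, had 1429, 847 and 1321 normalized counts in WT and 754 and 2061 in Flox (log2 fold change 0.23 ± 0.590 SE, adjusted p = 0.897, DESeq2). Its Flox libraries were the lowest and the highest of the 5.

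The smaller lists had few genes each. The medians were 0.62 for the 6 leak and activation genes, 0.14 for the 4 caveolar genes, 0.16 for the 6 basement membrane genes, 0.50 for the 6 arterial and 0.39 for the 5 venous genes, and Vcam1, which stands in the activation and the venous list, was the gene called. Of their genes, 4, 4, 5, 3 and 4 had an adjusted p. Of the most abundant genes of these lists, the caveolar Cav2 had a log2 fold change of -0.13 ± 0.131 (adjusted p = 0.668, DESeq2), the matrix protein gene Sparc 0.42 ± 0.305 (0.493), the arterial ligand Efnb2 -0.21 ± 0.196 (0.628) and the venous factor Nr2f2 0.23 ± 0.128 (0.316). The selectins Sele and Selp, markers of inflamed endothelium, had a normalized count of at most 1.99 in any library.

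**Figure D4:**
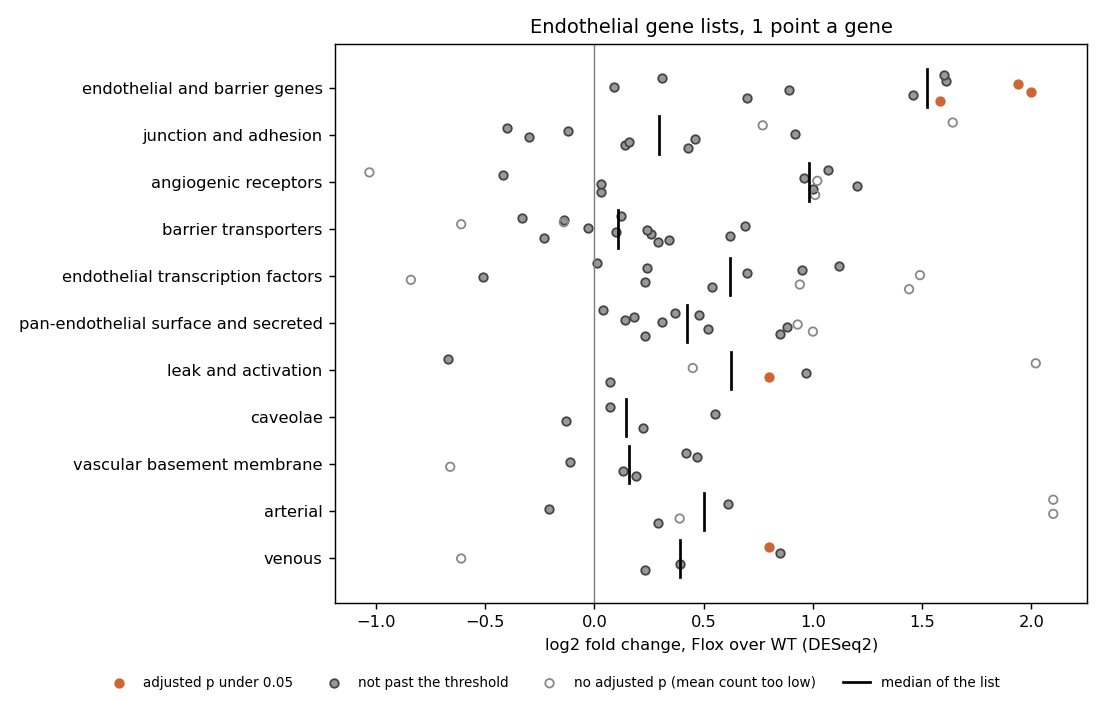
Log2 fold change of each gene (x axis, Esrrg Flox over Esrrg WT, DESeq2) in the 10 endothelial and barrier genes and in the 10 comparison lists, with the median of each list as a bar; filled orange points passed an adjusted p of 0.05 and open points had too few counts for an adjusted p. The median was 1.52 for the first list and ran from 0.11 to 0.98 over the others.

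The ligands of the vascular receptors and the Wnt and norrin pathway gave no calls in DESeq2 or edgeR. Of 6 vascular ligands, 0 passed in DESeq2 (0 higher and 2 lower at an unadjusted p), with a median log2 fold change of -0.16. Vegfb, a ligand of Flt1 and the most abundant, had 3959, 3828 and 3982 normalized counts in WT and 3726 and 2706 in Flox (log2 fold change -0.29 ± 0.137 SE, adjusted p = 0.204, DESeq2). Both Flox libraries were below all WT libraries for Vegfb, as they were for Vegfa, the ligand of Flt1 and Kdr, with a log2 fold change of -0.30 ± 0.143 (adjusted p = 0.198); Vegfa was named after its values were seen. In the Wnt and norrin pathway that maintains the barrier, 0 of 11 passed (1 higher and 1 lower unadjusted), with a median of -0.05. Its most abundant gene, Ctnnb1 (beta-catenin), had a log2 fold change of -0.03 ± 0.119 (adjusted p = 0.945, DESeq2).

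Markers of other cells moved with the members in some lists and not in others. Of 12 microglia markers, 10 were higher in Flox in DESeq2 and 7 in edgeR, with a median log2 fold change of 2.03, and 11 of 12 had both Flox libraries above all WT libraries. Their summed level was 85.0 to 171 CPM in WT, 299 in Flox replicate 2 and 647 in Flox replicate 4, and no marker was at 0. Within WT it was highest in replicate 3 and lowest in replicate 4, as it was for the 9 members other than Mfsd2a, which summed to 8.09, 14.3 and 5.93 CPM in WT and to 15.0 and 36.2 in Flox. C1qa, the complement gene that was the most abundant of the list, had 627, 743 and 377 normalized counts in WT and 1598 and 4044 in Flox (log2 fold change 2.28 ± 0.579 SE, adjusted p = 0.00367, DESeq2). Tyrobp, Trem2 and Tmem119, which encode proteins of the microglial surface, had log2 fold changes of 2.09 ± 0.338, 2.05 ± 0.334 and 1.17 ± 0.297. The part of microglial RNA in the result was not tested.

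Other cells of the vessel wall and the blood gave smaller values. Of 10 pericyte markers, 8 had an adjusted p and 0 passed in DESeq2 (1 higher unadjusted), with a median log2 fold change of 0.38 and summed levels of 29.4 to 47.9 CPM in WT and 48.9 to 53.9 in Flox. Of 5 red blood cell genes, 0 passed (0 unadjusted), with a median of 0.75 and summed levels of 38.3 to 105 CPM in WT, 149.8 in Flox replicate 2 and 97.0 in Flox replicate 4. For 2 of the 5 red blood cell genes both Flox libraries exceeded every WT library. For 5 smooth muscle genes the median was -0.06 (4.67 to 6.87 CPM in WT, 6.73 to 6.87 in Flox), for 5 genes of perivascular fibroblasts 0.24 (8.79 to 31.2 and 12.1 to 37.3) and for 5 of perivascular macrophages 0.64 (1.77 to 2.94 and 2.84 to 4.28), with 0 at an unadjusted p in each list and 0 passing of the 3, 4 and 2 genes that had an adjusted p. edgeR called 0 genes in any of these 5 lists, and of their markers only Tagln, of smooth muscle, was at 0 in a library. The part of these cells in the result was not tested.

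Markers of astrocytes, oligodendrocytes and dopaminergic neurons showed little of the pattern. Of 9 astrocyte markers, 0 passed (1 higher unadjusted) and the median log2 fold change was -0.01, with 3479 to 4919 CPM in WT and 3589 to 4514 in Flox. Of 8 oligodendrocyte markers, 0 passed (0 unadjusted) and the median was 0.10, with 5087 to 7260 CPM in WT and 5715 to 6616 in Flox. Of 11 dopaminergic markers, 1 was lower in Flox (Ret, log2 fold change -0.40 ± 0.10 SE, adjusted p = 0.00291, DESeq2) and the median was -0.18, with 2370 to 2742 CPM in WT and 2366 to 2409 in Flox. edgeR called 0 genes in these 3 lists. Th itself had a log2 fold change of -0.08 ± 0.124 (adjusted p = 0.810). The targeted gene, Esrrg, had 1763, 1643 and 1726 normalized counts in WT and 1504 and 1170.1 in Flox, below all WT libraries, over its whole length and not exon 2 alone (log2 fold change -0.35 ± 0.133 SE, adjusted p = 0.0753, DESeq2).

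**Figure D5:**
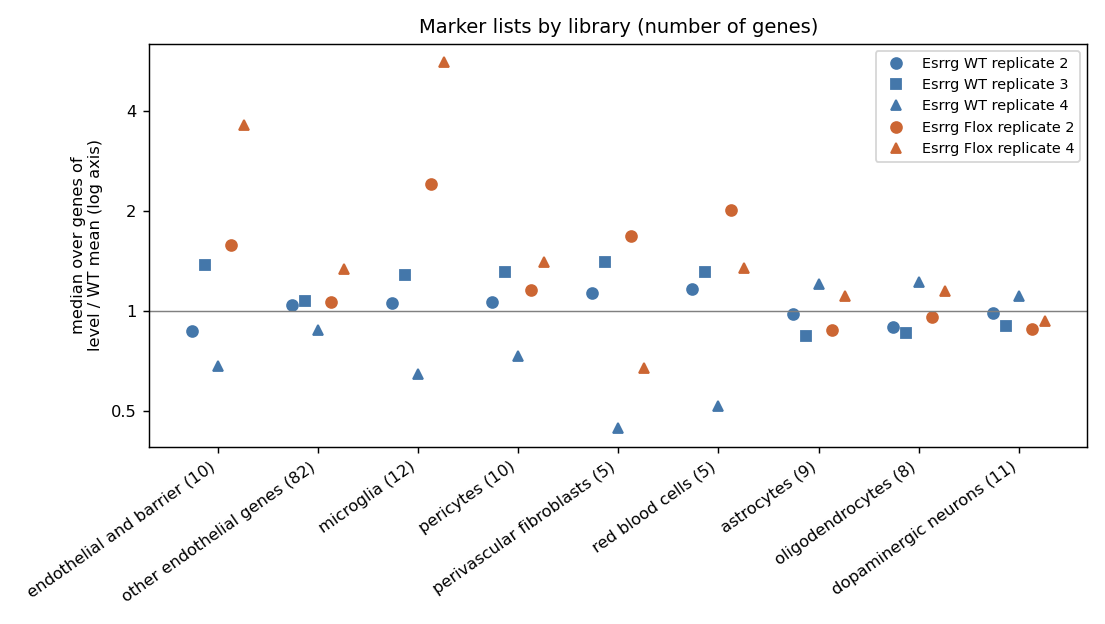
Median over the genes of each list of the level in a library divided by the WT mean (y axis, log scale), for the 10 endothelial and barrier genes, the 82 other endothelial genes and markers of 7 other cell types; the number of genes stands in parentheses. The first list stood at 1.59 and 3.63 in the Flox libraries and at 0.684 to 1.38 in the WT libraries, and the microglia list spread in the same order of libraries.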

How the data were processed

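BAC-TRAP RNA-seq of mouse midbrain was analysed in 3 Esrrg WT and 2 Esrrg Flox libraries. Libraries were poly(A)-selected and not stranded. Reads were trimmed, aligned and counted per gene by the authors, whose deposited table gives raw counts with no normalization. The submitters' processing notes give Trim Galore 0.6.6, STAR 2.7.9a, HTSeq 0.11.3 and the build GRCm39, while the methods name GRCm38, so no gene coordinates are given and promoter windows carry the build of the RefSeq table. Reads outside any gene made up 3.18% to 4.45% of a library, ambiguous reads 5.62% to 5.78% and reads aligned to more than 1 place 3.60% to 4.23%, and these stayed out of the tests. Symbols came from GENCODE M21 by ID, for 52093 of 53700 IDs (97.0%). Cre-negative controls were not analysed here.

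Counts of 29407 genes with at least 1 count were tested with DESeq2 1.42.0 in R 4.3.3 (default size factors, two-sided Wald test, independent filtering at 0.05, Benjamini-Hochberg adjustment over all genes), the study's tool, and in place of edgeR as the first test for that reason. edgeR 4.0.16 (quasi-likelihood, on the 16711 genes that reached 10 counts in 2 or more libraries) was an alternative, together with TMM library sizes, the low-count filter, no independent filtering, a null of a 1.5-fold change, a replicate block, each library left out, and, added after the data were seen, no independent filtering with Flox or WT replicate 4 left out. All 10 members passed the low-count filter. Normalized counts were obtained with the size factors, and CPM per kb is CPM of assigned counts over kilobases of merged exons. The tests were checked on simulated counts. An exact permutation test of 3 against 2 libraries cannot go below a two-sided p of 0.1, so none was used. The sources describe pools of mice and do not tie replicate numbers to a shared batch, so p-values take these libraries as the units. They do not rest on each gene's own spread alone, since DESeq2 shrinks the dispersion. For Flt1, Cldn5 and Slco1a4 it used 0.126, 0.105 and 0.191, below their own estimates of 0.335, 0.298 and 0.284. For Pecam1, Kdr, Tek and Mfsd2a the value used was above their own. The members and all gene lists were chosen with earlier results of these data known. Genes were named by list (those past an adjusted p of 0.05, at most 4 a list, and the most abundant), with the members, their close paralogs, Esrrg, Th and the 5 genes, of those outside all lists with a mean of at least 50 normalized counts, nearest to the members' mean centred log2 (normalized count + 1) profile. Some genes that this rule names are not reported here. Motifs were counted on both strands of 300-base windows.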

Additional observations from a re-analysis of the deposited data

How the results depend on the processing

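The members' directions mostly held and their calls often did not. Over 130 refits of single members under the alternatives, 31 gave no adjusted p. Of the 99 that did, 78 kept their direction and side of the threshold, 17 lost the call, 2 gained it (Ly6c1, without WT replicate 3 and without Flox replicate 2) and 2 turned in sign. Over all refits 4 turned in sign, all of them Tek, at -0.11 without WT replicate 4 and -0.08 without Flox replicate 4, with and without independent filtering, over a range of -0.11 to 0.44 with single libraries left out. The count of 3 members called higher, with or without the 1.5-fold limit, was 0 by edgeR and 0 against a null of a 1.5-fold change. It was 2 with the low-count filter (Flt1 and Slco1a4), 2 without independent filtering (Flt1 and Cldn5) and 3 with TMM library sizes. As single WT libraries were left out, it ran from 0 to 3. With the replicate number as a block it was 1 (Cldn5, log2 fold change 1.94, adjusted p = 0.0134, DESeq2), but only 2 members then had an adjusted p. Leaving out WT replicate 4 or Flox replicate 4 left no member with an adjusted p. Independent filtering was then turned off, an alternative chosen after seeing the data. Without WT replicate 4, 0 members were called in that fit, where 281 of 28742 genes were called higher and 230 lower. Without Flox replicate 4 only Flox replicate 2 stood for its group, and without Flox replicate 2 only Flox replicate 4. For both fits the effect size alone is read. The median log2 fold change of the members ran from 0.66 (without Flox replicate 4) to 1.99 over the libraries left out. For the other endothelial genes the count of 1 higher was 0 by edgeR, 3 with the low-count filter (Vcam1, Egfl7 and Cavin1) and 0 against the 1.5-fold null. It was 0 to 1 with single WT libraries left out, and with the replicate block the 1 gene called was Lef1 in place of Vcam1. The count of 0 lower was 1 with the replicate block (S1pr1) and 0 with single WT libraries left out. Their median log2 fold change ran from 0.09 to 0.42 over the libraries left out. Promoters with AGGAAG fell from 4 to 2 on 1 strand. Over all genes, DESeq2 called 660 higher and 637 lower, edgeR 170 and 105, the replicate block 221 and 255, no independent filtering 469 and 432, and the 1.5-fold null 10 and 2, and without Flox replicate 4 it was 33 and 39. The numbers do not establish pairs: libraries of the same number deviated together only weakly (r = 0.153 and 0.126 across 12846 genes, which are not independent replicates), and there were 2 pairs. With 2 Flox libraries and under 10 WT counts for some members, smaller differences were not detectable at this depth.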

Other observations

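Of 12717 genes outside the lists with a mean of at least 50 normalized counts, the 5 whose profile over the 5 libraries was nearest to the mean profile of the endothelial genes (Euclidean distance of centred log2 values) were Malat1 (0.136), Nckap1l (0.181), Fermt3 (0.182), Fcgr1 (0.220) and Parvg (0.274). All 5 lay nearer to that mean profile than any of the 10 endothelial genes did, of which Cldn5 was nearest at 0.563. This ordering follows in part from the choice, since the 5 were the nearest of many candidates and had to reach a mean that was not asked of the endothelial genes. Malat1, a long noncoding RNA of the nucleus, had 825, 1206 and 540.0 normalized counts in WT replicates 2, 3 and 4 and 1442 and 2591 in Flox replicates 2 and 4 (log2 fold change 1.23 ± 0.518 SE, adjusted p = 0.128, DESeq2). Nckap1l, a regulator of actin in blood cells, had 50.6, 86.6 and 35.5 in WT and 101 and 179.9 in Flox (1.29 ± 0.391, adjusted p = 0.0198). Fermt3, an integrin activator of blood cells, had 41.1, 55.0 and 25.9 in WT and 68.2 and 132 in Flox (1.30 ± 0.415, adjusted p = 0.0286). Fcgr1, an antibody receptor of myeloid cells, had 63.2, 82.5 and 38.4 in WT and 105 and 193 in Flox (1.28 ± 0.369, adjusted p = 0.0131). Parvg had 43.2, 55.0 and 29.8 in WT and 65.3 and 123 in Flox (1.15 ± 0.400, adjusted p = 0.0509). In each of the 5, WT replicate 3 was the highest and WT replicate 4 the lowest WT library, and Flox replicate 4 was the highest of all. The genes were picked for this likeness, so their shared pattern is a description.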
